A study of Homo sapiens and Mus musculus with 19 samples.

Results

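Chromatin-associated RNA (caRNA, the RNA that stays bound to the chromatin pellet) was examined for 9 genes of the megakaryocyte and platelet programme in K562, a chronic myeloid leukaemia line. They were TUBB1, ITGA2B, ITGB3, PF4, PPBP, GP1BA, GP9, VWF and PLEK, taken by symbol from 58676 genes in the count files. The set was chosen by its read counts, because TUBB1 moved in opposite directions with shMBD6 in the 2 TET2 genotypes, so the shMBD6 comparisons of these genes are given as a description without a p-value. All 9 had at least 1 count, 4 of them passed the filter on low counts (TUBB1, ITGA2B, VWF and PLEK), and 5 did not.

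The 12 libraries came from TET2 wild-type (WT) and TET2 knockout (KO) K562 cells, transduced with either a control hairpin (shControl) or a hairpin that targets MBD6 (shMBD6). There were 3 libraries in each of these 4 groups, which are called by genotype and hairpin from here on. TET2 oxidises 5-methylcytosine, and MBD6 belongs to the methyl-CpG-binding-domain protein family. All cells carried a lentiviral shRNA vector and were kept in puromycin, with 1 hairpin against MBD6. The TET2 KO cells were obtained from another laboratory, and whether they are 1 clone is not stated. The study calls its replicates biological, but neither the labels nor the methods say whether the 3 libraries of a group came from separate cultures, so p-values measure the spread between these libraries. The labels call K562 a bone marrow lymphoblast line. By summed level, 21 erythroid genes reached 1020 to 2112 CPM (counts per 1000000 scaled gene counts) per library, 15 granulocyte and monocyte genes 27.2 to 54.3 CPM (ELANE and S100A8 at 0), and 11 lymphoid genes 3.18 to 8.002 CPM.

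Megakaryocytes and erythroid cells share a progenitor, and K562 cells can be driven towards either fate. Megakaryocytes build platelets by extending processes held up by microtubules, in which the beta tubulin encoded by TUBB1 is the main isoform. They load granules with the chemokines PF4 and PPBP and the adhesion protein VWF, and display the receptors through which platelets stick and clump. These are the integrin made of ITGA2B and ITGB3, which binds fibrinogen, and the complex containing GP1BA and GP9, which binds VWF. PLEK (pleckstrin) is a substrate of protein kinase C in platelets and in leukocytes.

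Promoter windows were available for 5 of the 9 members in RefSeq (GRCh38.p14). Each runs from 250 bases before the annotated start to 50 bases after it. The windows of TUBB1 and ITGA2B are shown because these 2 genes carried nearly all reads of the set, and that of PPBP because it held the most motif matches of the 5 while the gene was almost without reads. Capitals mark 6-letter matches on either strand to words of the GATA, ETS and RUNX families of factors, which are known for megakaryocyte genes. The GATA words searched for were AGATAA, with AGATAG as its first variant, TGATAA as the next and finally TGATAG. The ETS words searched were AGGAAG and also CGGAAG. The RUNX words searched were TGTGGT and also TGCGGT. TUBB1 lies at chr20:59019179-59019478 (plus strand), ITGA2B at chr17:44389600-44389899 (minus strand) and PPBP at chr4:73988141-73988440 (minus strand).
TUBB1: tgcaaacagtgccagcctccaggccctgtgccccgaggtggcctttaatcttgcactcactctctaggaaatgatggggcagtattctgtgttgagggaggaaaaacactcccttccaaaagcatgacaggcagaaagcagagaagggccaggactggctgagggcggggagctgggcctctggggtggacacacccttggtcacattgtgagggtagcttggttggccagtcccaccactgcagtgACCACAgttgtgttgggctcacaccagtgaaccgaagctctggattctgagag
ITGA2B: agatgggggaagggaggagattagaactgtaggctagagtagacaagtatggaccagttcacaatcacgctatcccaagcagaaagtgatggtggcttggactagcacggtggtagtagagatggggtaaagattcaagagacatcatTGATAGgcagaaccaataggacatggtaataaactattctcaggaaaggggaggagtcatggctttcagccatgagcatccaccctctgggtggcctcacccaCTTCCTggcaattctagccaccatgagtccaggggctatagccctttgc
PPBP: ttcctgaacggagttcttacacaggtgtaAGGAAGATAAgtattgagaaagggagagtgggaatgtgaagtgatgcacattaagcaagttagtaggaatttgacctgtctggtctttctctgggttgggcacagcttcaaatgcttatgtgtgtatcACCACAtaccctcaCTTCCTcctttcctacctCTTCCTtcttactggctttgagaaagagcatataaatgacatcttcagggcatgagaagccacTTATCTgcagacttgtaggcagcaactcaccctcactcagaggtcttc
The TUBB1 window held 1 match, a RUNX word on the other strand beginning 3 bases before the start. The ITGA2B window held 1 GATA word 102 bases before the start and 1 ETS word on the other strand at the start itself. The PPBP window held 2 GATA, 3 ETS and 1 RUNX matches, of which 1 ETS and 1 GATA word overlapped. GP9 had 2 ETS and 1 RUNX matches and PLEK had 1 RUNX match. Over 35116 windows of the same length, 25.0% held a GATA word, 46.9% an ETS word and 19.6% a RUNX word. ITGB3, PF4, GP1BA and VWF are named here without a window.

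MBD6 itself was read first, since shMBD6 targets it. These reads are chromatin-associated RNA and do not measure MBD6 mRNA of the whole cell or protein. They cannot settle whether a label is right or a knockdown absent. In WT it stood at 43.3, 42.7 and 38.6 CPM in shControl and at 30.9, 25.7 and 27.2 CPM in shMBD6 libraries. It thus fell by 0.57 on the log2 scale (SE 0.08, quasi-likelihood test of edgeR with Benjamini-Hochberg adjustment, adjusted p = 1.83e-07), in the direction of the label. In KO it stood at 30.6, 30.8 and 29.4 CPM in libraries labelled shControl and at 30.6, 38.3 and 34.2 CPM in those labelled shMBD6. That log2 change was 0.19 (SE 0.08, edgeR adjusted p = 0.0574) and went against the label, and it passed the threshold under scaling by total gene counts (0.31) and by DESeq2 size factors (0.20). Every statement on KO therefore speaks of libraries labelled shMBD6. The read level of TET2 over the whole gene was 121 CPM in both WT groups, 129 CPM in KO libraries labelled shControl and 94.8 CPM in those labelled shMBD6, and does not check the knockout, since the edited stretch is not given. Libraries held 52158403 to 102070223 gene counts. Genes with a count numbered 28970 to 31932 and 33529 to 34601 in WT shControl and shMBD6 libraries, and 28400 to 29073 and 24480 to 26963 in KO libraries labelled shControl and shMBD6.

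Of the 9 members, ITGA2B stood above background in all 4 groups and TUBB1 in 3 of them. The background was taken as the mean of 864 olfactory receptor genes, which this cell type has no known use for. It came to 0.0712, 0.0856, 0.103 and 0.0699 CPM per kb of gene span in WT shControl, WT shMBD6, KO shControl and KO shMBD6. On that scale ITGA2B lay 32.7, 27.3, 17.9 and 21.1 times above the background in the same order of groups. TUBB1 lay 25.4, 3.45 and 8.12 times above it in the first, second and last group, and at 0.714 times the background in KO shControl, or 1.14 times without the receptor genes of chromosome 11 and 2.45 times against the median of those detected. PLEK stayed at 0.249 to 0.661 times the background, and VWF, whose gene span is far longer, at 0.00287 to 0.133 times. These ratios depend on the scale, since the part of the gene that was counted is not given. Per kb of annotated exon, for members and olfactory receptor genes alike, PLEK lay at 1.61, 2.91, 3.94 and 2.71 times the background in the same order, VWF at 0.795, 1.39, 0.131 and 0.0284 times and TUBB1 in KO shControl at 0.923 times.

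**Figure D1:**
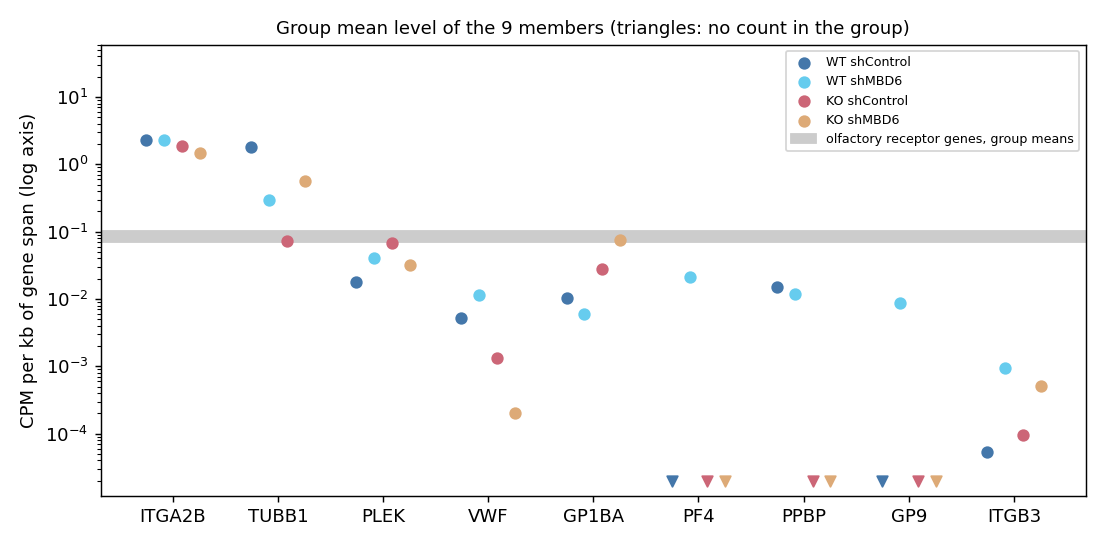
Group mean level of each member in CPM per kb of gene span on a log axis, with 1 mark per group and triangles for groups without a count. The grey band is the range of the 4 group means of the olfactory receptor genes, and ITGA2B lies above it in all 4 groups while TUBB1 in KO shControl, at 0.714 times its group's background, is near it.

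The chemokine and glycoprotein members were at or near 0. PF4 had 6 reads in all, in 2 WT shMBD6 libraries, and PPBP had 8 reads in 1 WT shControl library and 6 in 1 WT shMBD6 library. Neither had a read in the 6 KO libraries, where 3 counts over a group correspond to 0.0125 and 0.0139 CPM. GP9, a subunit of the VWF receptor, had 3 reads in 1 WT shMBD6 library and none elsewhere. GP1BA, the VWF-binding subunit, had 0, 9 and 0 reads in WT shControl, 2, 0 and 2 in WT shMBD6, 3, 2 and 12 in KO shControl, and 6, 4 and 36 in KO libraries labelled shMBD6. ITGB3, the integrin partner of ITGA2B, had 21 reads in all, at most 7 in a library. These 5 genes did not pass the filter on low counts, so differences between groups were not tested for them.

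Reads of ITGB3 may have been set aside, because 99.9% of its span (ENSG00000259207.7, chr17:47253827-47313743) is covered on the same strand by ENSG00000259753, which had group means of 0.414 to 1.26 CPM. PF4 (ENSG00000163737.3, chr4:73980811-73982027) and PPBP (ENSG00000163736.3, chr4:73986439-73988190) lie 4.412 kb apart and are overlapped on the same strand by ENSG00000288796 in the annotation used here, which is not in the count files. GP1BA (ENSG00000185245.7, chr17:4932277-4935023) lies opposite CHRNE, and whether counting used strand is not given in the sources used here.

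Together the 9 members took 56.6 ± 4.43 (SD, n = 3) counts per 1000000 gene counts in WT shControl, 50.8 ± 2.76 in WT shMBD6, 32.0 ± 2.28 in KO shControl and 30.8 ± 2.66 in KO libraries labelled shMBD6. ITGA2B alone made up 73.6% to 91.2% of this sum over the group means, and ITGA2B with TUBB1 92.6% to 97.2%. The set is in effect 2 genes in these libraries. In a bulk culture, fewer cells of a type and less RNA per cell cannot be told apart.

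TUBB1 (ENSG00000101162.3, chr20:59019429-59026654, plus strand) showed 4 distinct levels. It stood at 14.5, 12.01 and 12.7 CPM in WT shControl and at 1.70, 1.94 and 2.77 CPM in WT shMBD6 libraries. It stood at 0.262, 0.679 and 0.658 CPM in KO shControl and at 5.83, 2.96 and 3.52 CPM in KO libraries labelled shMBD6. The order of groups was WT shControl, KO labelled shMBD6, WT shMBD6 and KO shControl, and no 2 neighbours in that order overlapped.

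The group means of TUBB1 were 13.1 ± 1.26 CPM (SD, n = 3), 4.10 ± 1.52, 2.14 ± 0.561 and 0.533 ± 0.235 in that order, resting on 3575, 862, 469 and 111 reads. As a description of what placed TUBB1 in the set, its log2 change with shMBD6 was -2.61 (SE 0.25) in WT and 2.97 (SE 0.28) between the labels in KO. Leaving out 1 library at a time kept these between -2.85 and -2.47, and between 2.61 and 3.19. The genotype difference changed sign between the shRNA labels as well, at -4.64 (SE 0.29) in shControl and 0.94 (SE 0.24) in shMBD6 libraries. ATP5F1E overlaps TUBB1 on the opposite strand and moved in the same directions but less, at -0.58 in WT and 0.30 in KO on the log2 scale.

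**Figure D2:**
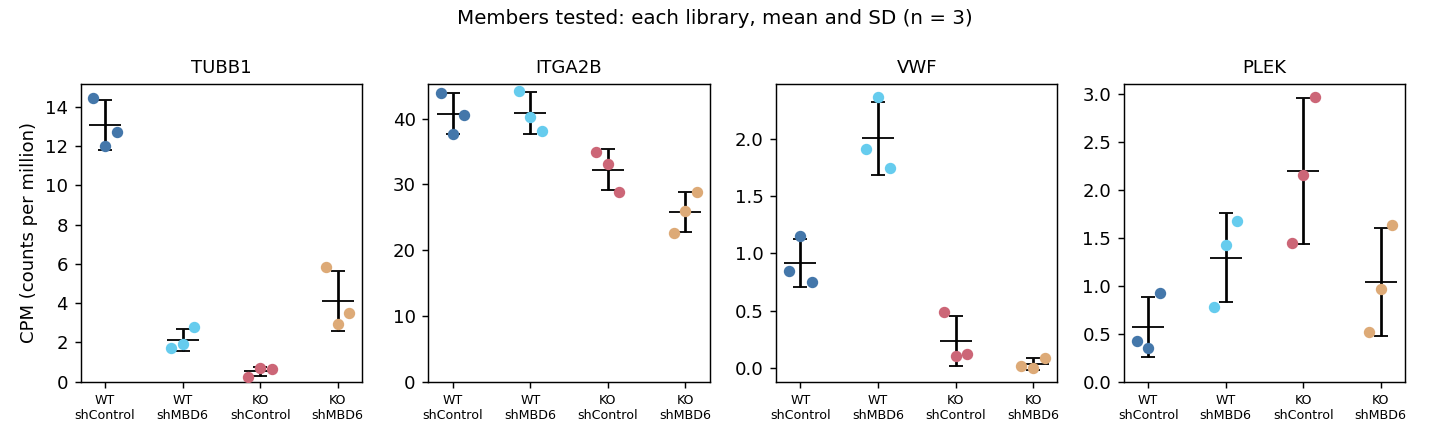
CPM of the 4 tested members in each library, with the mean and SD of the 3 libraries per group. TUBB1 shows 4 separate levels, ITGA2B and VWF are lower in all 6 KO libraries than in all 6 WT libraries, and PLEK overlaps between most groups.

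ITGA2B (ENSG00000005961.18, chr17:44372180-44389649, minus strand), the integrin subunit that marks the megakaryocyte lineage, followed the genotype. It stood at 43.9, 37.6 and 40.6 CPM in WT shControl and at 44.2, 40.2 and 38.0 CPM in WT shMBD6. It stood at 34.9, 33.0 and 28.8 CPM in KO shControl and at 22.6, 26.0 and 28.8 CPM in KO libraries labelled shMBD6. The 2 WT groups overlapped, at means of 40.7 ± 3.12 and 40.8 ± 3.14 CPM. Both KO groups lay below them, at 32.3 ± 3.14 and 25.8 ± 3.08 CPM, and met at their edges.

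VWF (ENSG00000110799.13, chr12:5948877-6124770, minus strand), which tethers platelets to vessel walls and is also made by endothelial cells, was low throughout. It stood at 0.844, 1.15 and 0.746 CPM in WT shControl and at 1.91, 2.36 and 1.75 CPM in WT shMBD6. It stood at 0.488, 0.104 and 0.119 CPM in KO shControl and at 0.0152, 0 and 0.0909 CPM in KO libraries labelled shMBD6. The 4 groups did not overlap and rested on 256, 441, 56 and 8 reads, so VWF passed the filter on low counts through its WT groups. Summed over 9 endothelial genes, levels were 24.6 to 27.9, 19.6 to 22.9, 18.9 to 20.3 and 21.8 to 26.2 CPM in the same order of groups, with 2 genes called higher and 5 lower of 9 in KO on average (27.7% and 25% over all genes tested), and their part in the VWF result was not tested.

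PLEK (ENSG00000115956.9, chr2:68365282-68397453, plus strand) stood at 0.429, 0.355 and 0.925 CPM in WT shControl and at 0.778, 1.43 and 1.68 CPM in WT shMBD6. It stood at 1.45, 2.16 and 2.98 CPM in KO shControl and at 0.518, 0.969 and 1.64 CPM in KO libraries labelled shMBD6. Neighbouring groups in the order of the means overlapped, and the lowest mean, WT shControl, lay wholly below the highest, KO shControl. The granulocyte and monocyte genes, which share PLEK with platelets, summed to 29.7, 43.3, 52.9 and 48.6 CPM over the same groups, and their part in the PLEK result was not tested.

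The comparison of KO with WT was averaged over the shRNA labels so that it does not rest on them. It asked how these transcripts on chromatin differed between the KO and WT cells. Loss of TET2 and other differences between these cells cannot be told apart. ITGA2B fell by 0.50 on the log2 scale (SE 0.06, edgeR quasi-likelihood, adjusted p = 6.27e-09), and all 6 KO libraries lay below all 6 WT libraries. VWF had a log2 change of -3.80 (SE 0.46), also without overlap between the 6 and 6 libraries. Because VWF passed the filter on low counts through its WT groups, its change is given as a description without a p-value. The size of the VWF change rested on few KO reads and was -4.35 without KO shControl replicate 1 and -4.85 without KO shMBD6 replicate 3. TUBB1 had an average log2 change of -1.85 (SE 0.18), given as a description, since values of the same libraries chose it. Its KO and WT libraries overlapped, and the average spans the 2 opposite differences given above.

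PLEK had an average log2 change of 0.82 (SE 0.30, edgeR adjusted p = 0.0218) with overlapping libraries. This call was lost when total gene counts set the scaling (0.65), and without WT shControl replicate 2 (0.69), WT shMBD6 replicate 1 (0.68), KO shControl replicate 3 (0.68) or KO shMBD6 replicate 3 (0.58). In all, 1 member was called higher and 3 lower of 4 tested, in a comparison that called 27.7% of its 26022 genes higher and 25% lower. Nothing is read from this count, which includes TUBB1 and VWF. The share called over all genes was large in this comparison, and the split between directions moved with the scaling, with 52.5% of calls higher under TMM (the trimmed mean of M-values) and 30.3% under total gene counts.

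**Figure D3:**
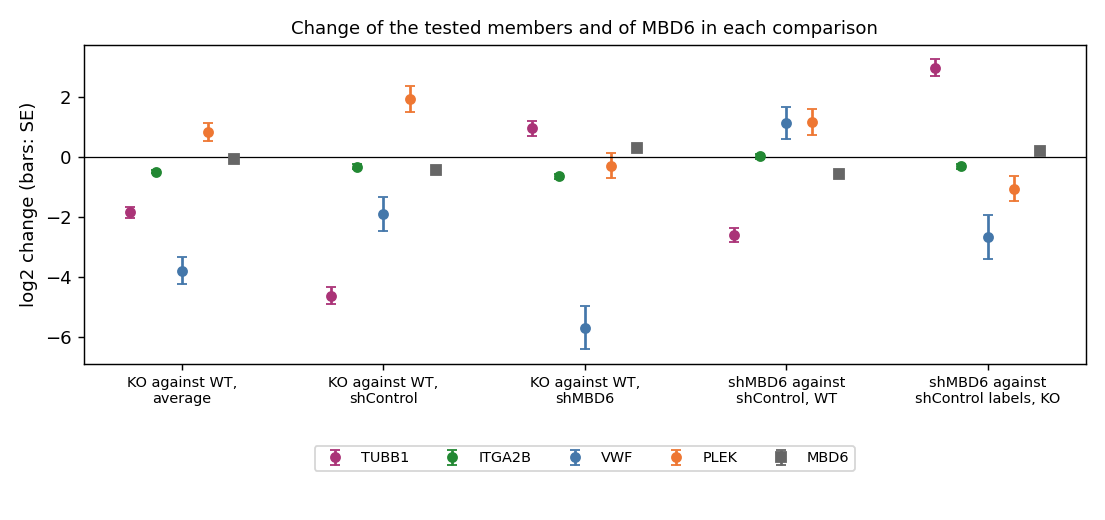
The log2 change of the 4 tested members and of MBD6 in each of 5 comparisons, with bars for the SE. ITGA2B and VWF lie below 0 in all 3 genotype comparisons, and TUBB1 changes sign between the shRNA labels and between the genotypes.

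Within the shControl libraries, ITGA2B had a log2 change of -0.33 in KO (SE 0.08, edgeR adjusted p = 0.000860) and PLEK of 1.94 (SE 0.43, edgeR adjusted p = 0.000366). For VWF it was -1.91 (SE 0.57), given as a description. VWF gave -3.01 without KO shControl replicate 1, and PLEK gave 2.49 without WT shControl replicate 3. With TUBB1, 1 member was called higher and 3 lower, where 23.5% of all genes were called higher and 22.3% lower. Nothing is read from this count, which the choice of TUBB1 enters and which includes VWF. The share of calls that were higher was 51.4% under TMM and 35.3% under total gene counts.

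Within the libraries labelled shMBD6, ITGA2B had a log2 change of -0.66 in KO (SE 0.08, edgeR adjusted p = 2.42e-08). For VWF it was -5.70 (SE 0.72), given as a description. The VWF value rested on 8 reads in KO and was -7.80 without KO shMBD6 replicate 3. PLEK had -0.30 (SE 0.42, edgeR adjusted p = 0.560). There, counting TUBB1, 1 member was called higher and 2 lower, where 30.1% of all genes were called higher and 28.5% lower. Again nothing is read from the count. The share of calls that were higher was 51.4% under TMM, 39.6% under total gene counts and 41.1% with the DESeq2 test.

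The shMBD6 comparisons, made between the shRNA labels within each genotype, are given for the members as values only. In WT the log2 change was 0.01 (SE 0.08) for ITGA2B, 1.13 (SE 0.53) for VWF and 1.17 (SE 0.43) for PLEK. Counting TUBB1, whose change here chose the set, 1 member was called higher and 1 lower, where 17.7% of all genes were called higher and 24.7% lower, and nothing is read from the count. Leaving out 1 library at a time gave 1 to 3 called members. The number was 1 without WT shControl replicate 1 or 2 and without WT shMBD6 replicate 2 or 3, and 3 without KO shMBD6 replicate 1 or 3. The share of calls that were higher in this comparison was 41.8% under TMM, 55.1% under DESeq2 size factors, 53.4% under total gene counts, 54.6% without a filter on low counts and 57.3% with the DESeq2 test.

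In KO, between libraries labelled shMBD6 and shControl, the log2 change was -0.32 (SE 0.08) for ITGA2B, -2.67 (SE 0.73) for VWF and -1.07 (SE 0.42) for PLEK. The VWF value was -1.56 without KO shControl replicate 1 and -4.77 without KO shMBD6 replicate 3. Counting TUBB1, which was chosen on this difference, 1 member was called higher and 3 lower, where 15.7% of all genes were called higher and 20.6% lower, and nothing is read from the count. Under scaling by total gene counts, ITGA2B (-0.20) and PLEK (-0.95) were no longer called and 2 members remained. The share of calls that were higher was 43.3% under TMM and 59.9% under total gene counts. In the interaction of genotype and shRNA label, TUBB1 had 5.58 (SE 0.37), ITGA2B -0.33 (SE 0.11), VWF -3.80 (SE 0.91) and PLEK -2.24 (SE 0.60) on the log2 scale. The VWF value was -2.69 without KO shControl replicate 1 and -5.89 without KO shMBD6 replicate 3. There 1 member, TUBB1, was called higher and 3 lower, where 23.9% of all genes were called higher and 25.5% lower, and again nothing is read from a count that the choice of TUBB1 enters.

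A move in opposite directions in the 2 genotypes was common among all genes. Of 6710 genes called in both shMBD6 comparisons, which share no library, 3275 were lower in WT and higher in KO as TUBB1 was, 2648 went the reverse way as VWF's values did, and 88.3% in all took opposite directions. Among the wider list of 95 megakaryocyte and platelet genes, 36 were called in both, 13 and 12 of them in these opposite ways (69.4%), 2 were higher in both and 9 lower in both. Among 19 erythroid genes tested, 9 were called in both, of which 8 went the way of TUBB1 and 1, ALAS2, the enzyme that starts haem synthesis in red cell precursors, the reverse way.

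**Figure D4:**
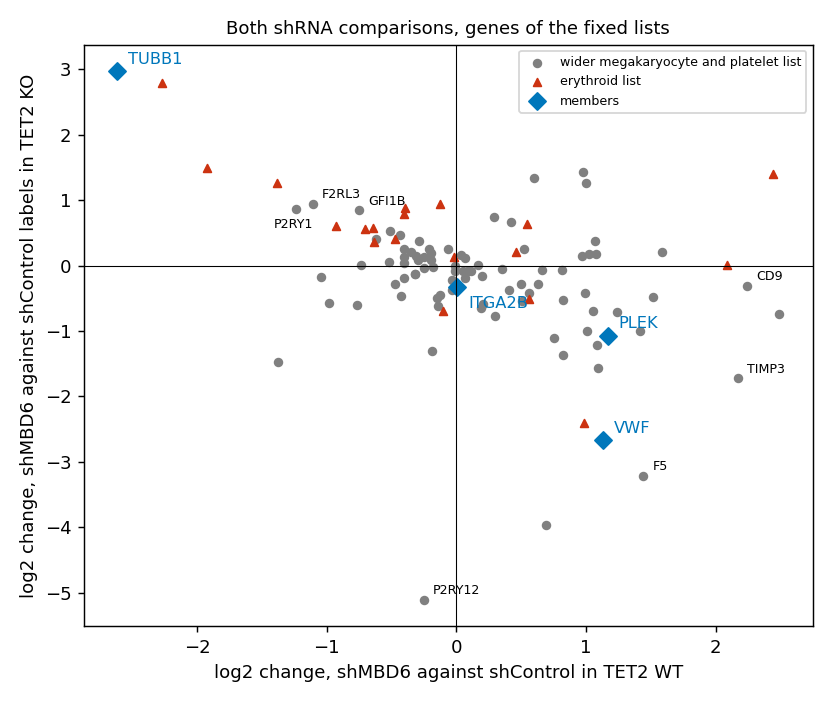
The log2 change with shMBD6 in WT (horizontal) against that between the labels in KO (vertical), with 1 mark for each tested gene of the wider list, the erythroid list and the members. TUBB1, at -2.61 and 2.97, lies farther out in the upper left quadrant than the erythroid genes.

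The genes whose log2 CPM most resembled that of TUBB1 over the 12 libraries, among 12188 protein-coding genes of at least 1 CPM, were H1-2 (Pearson r = 0.969), HBG1 (0.967), NT5DC4 (0.966), SLC25A12 (0.966) and RHAG (0.965). H1-2 is a linker histone, HBG1 a fetal haemoglobin chain, SLC25A12 a mitochondrial carrier and RHAG a red cell membrane protein. These correlations describe 4 group levels that all genes share, and are not tests. The mean of NT5DC4 ran 17.5, 2.44, 0.893 and 4.99 CPM over WT shControl, WT shMBD6, KO shControl and KO labelled shMBD6, and that of HBG1 ran 6.63, 1.75, 0.990 and 2.77 CPM. HBG1 is overlapped on its strand by ENSG00000284931. Within the set, the correlation over 12 libraries was 0.918 between ITGA2B and VWF, 0.171 between TUBB1 and ITGA2B and -0.752 between TUBB1 and PLEK.

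The erythroid genes were read beside TUBB1. Their summed level was 2062 to 2112 CPM in WT shControl, 1338 to 1346 in WT shMBD6, 1020 to 1028 in KO shControl and 1518 to 1532 in KO labelled shMBD6, in the same order of groups as TUBB1. Of 21 genes listed, HBG2 and HBE1 were at 0 and are fully overlapped on their strand by other genes. Of 19 tested, 0 were called higher by edgeR (0 at an unadjusted p under 0.05, 0 by DESeq2) and 14 lower in KO on average, where 27.7% and 25% of all genes were. The average spans unlike differences. Within shControl libraries 1 was higher and 13 lower in KO (23.5% and 22.3% of all genes), with a median log2 change of -1.05. Within libraries labelled shMBD6, 6 were higher and 5 lower (30.1% and 28.5%), with a median of -0.06. With shMBD6 in WT, 1 was called higher and 9 lower (17.7% and 24.7% of all genes), and between the labels in KO 10 higher and 1 lower (15.7% and 20.6%). The fetal haemoglobin gene HBG1 had a log2 change of -1.92 (SE 0.26) in WT and 1.49 (SE 0.27) in KO. These values are a description, since HBG1 was named above for its likeness to TUBB1 over the same libraries. KLF1, an erythroid transcription factor, had -0.93 (SE 0.11) and 0.61 (SE 0.11). The part of the erythroid genes in the TUBB1 result was not tested.

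Genes next to TUBB1 on chromosome 20 were read as well. All 5 annotated neighbours within 50 kb were tested, and 4 of them were called lower with shMBD6 in WT and higher between the labels in KO, as 12.6% of all genes were (24.7% called lower in WT and 15.7% higher in KO). These were NELFCD, a subunit of a transcription pausing complex (-0.34 and 0.31), CTSZ, a lysosomal protease (-0.54 and 0.51), the ATP synthase subunit gene ATP5F1E (-0.58 and 0.30) and PRELID3B, which serves mitochondrial lipid transfer (-0.70 and 0.37). In KO on average only CTSZ was called among the 5, at -0.19 (SE 0.06, edgeR adjusted p = 0.00417).

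Within 50 kb of all members, 8 neighbours of 29 tested were called higher and 5 lower in KO on average, beside 27.7% and 25% of all genes. ANO2, a chloride channel gene 2.645 kb from VWF, had an average log2 change of -1.48 in KO (SE 0.17, edgeR adjusted p = 8.83e-09). CNRIP1, 45.231 kb from PLEK, had 2.77 (SE 0.11, edgeR adjusted p = 5.33e-21). Around ITGB3, MYL4, an embryonic and atrial myosin light chain, had -0.91 with shMBD6 in WT and 0.92 in KO, and EFCAB13 had 0.94 and -1.07. Within 50 kb of ITGA2B, GPATCH8 had an average log2 change of 0.20 in KO (SE 0.02, edgeR adjusted p = 1.83e-09), opposite to that of ITGA2B.

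Of 7 beta tubulins tested, TUBB1 not among them, 1 was called higher and 1 lower in KO on average (14.3% each, beside 27.7% and 25% of all genes). On average, TUBB4B had a log2 change of -0.23 (SE 0.06, edgeR adjusted p = 0.00117) and TUBB6 of 0.16 (SE 0.04, edgeR adjusted p = 0.000363), while the other 5 did not pass. With shMBD6 in WT, 28.6% were called lower (24.7% of all genes), and between the labels in KO 42.9% were called higher and 14.3% lower (15.7% and 20.6%). TUBB, the widely expressed isoform, had -0.73 (SE 0.20, edgeR adjusted p = 0.00300) with shMBD6 in WT and 0.85 (SE 0.20, edgeR adjusted p = 0.000891) between the labels in KO. TUBB2A fell by 0.76 and TUBB2B had 2.17 between the labels in KO, the latter at group means of 0.679 and 0.147 CPM. Near-identical copies could have shared reads among these isoforms.

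A wider list of 95 megakaryocyte and platelet genes was read over the same libraries. GP1BB, PF4V1, VPS33B and HOXA10 had no count, and 87 were tested. Other genes on the same strand cover 100% of the span of GP1BB, 99.8% of VPS33B and 97.4% of HOXA10, so their reads may have been set aside, while PF4V1 has no such overlap. On average in KO, 26 of 87 (29.9%) were called higher and 40 (46.0%) lower, compared with 27.7% and 25% over all genes, and the median log2 change was -0.10 compared with 0.00. The split depended on scaling, with 20 higher and 44 lower under DESeq2 size factors and 14 and 51 under total gene counts.

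The counts differed by level. Of 69 genes of at least 1 CPM, 25 were higher and 28 lower (36.2% and 40.6%, compared with 43.8% and 17.7% over all genes of that level), with a median of -0.02 compared with 0.11. Of 18 tested genes under 1 CPM, 1 was higher and 12 lower, with a median of -1.49 compared with -0.87. Over all 10563 tested genes of that level, 4.17% were called higher and 35.7% lower, and genes so low can pass the filter through the group in which they are high, so nothing is read from this count.

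**Figure D5:**
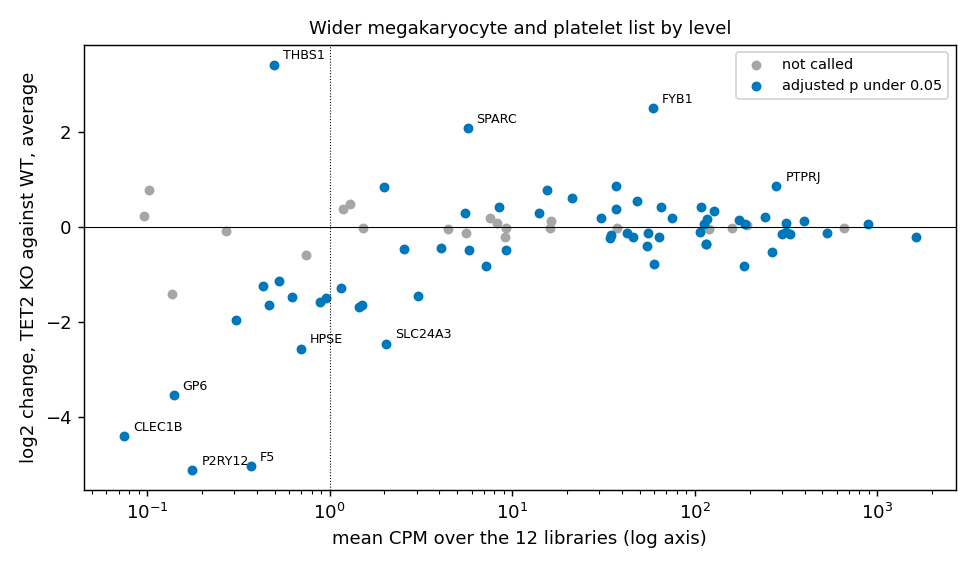
Average log2 change in KO for each tested gene of the wider list against its mean CPM over the 12 libraries (log axis), with called genes coloured and a dotted line at 1 CPM. Under 1 CPM, 12 of 18 genes are called lower, where 35.7% of all genes of that level are, and the genes at higher levels spread to both sides of 0.

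By role, receptors and adhesion proteins had 3 higher and 11 lower of 22 tested (13.6% and 50.0%, beside 27.7% and 25% of all genes). Granule and secreted proteins had 6 and 9 of 19 (31.6% and 47.4%) and signalling proteins 6 and 9 of 18 (33.3% and 50.0%). Transcription factors had 4 and 9 of 16 (25.0% and 56.2%) and cytoskeletal proteins 7 and 2 of 12 (58.3% and 16.7%). The last count was 4 and 4 under total gene counts. At 1 CPM or more, the counts in this order were 3 and 6 of 14, 5 and 5 of 12, 6 and 7 of 16, 4 and 8 of 15, and 7 and 2 of 12. Over all genes of that level, 43.8% were called higher and 17.7% lower. Among genes whose 6 KO and 6 WT libraries did not overlap (24 of those called in the list, and 17.8% of all genes tested), the largest increases were THBS1 (thrombospondin, 3.41), FYB1 (an adaptor of integrin activation, 2.50), SPARC (a matrix protein of alpha granules, 2.08), TPM1 (tropomyosin, 0.86), PTPRJ (a receptor phosphatase, 0.86) and SRGN (the granule proteoglycan serglycin, 0.78). THBS1 had 36 and 10 reads in the WT shControl and shMBD6 groups and 305 and 104 in the KO groups. It passed the filter on low counts through KO libraries, so its change is given as a description. FYB1 rose from 24.5 ± 1.33 to 120 ± 4.26 CPM in shControl and from 12.4 ± 0.584 to 80.5 ± 3.99 CPM in libraries labelled shMBD6 (SD, n = 3). PTPRJ was 183 ± 2.92 and 438 ± 7.81 CPM, and 211 ± 6.81 and 290 ± 8.89 CPM, in the same pairs.

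The largest decreases were P2RY12 (an ADP receptor), F5 (a coagulation factor), CLEC1B (the podoplanin receptor), GP6 (the collagen receptor), HPSE (heparanase, -2.56) and SLC24A3 (a sodium and calcium exchanger, -2.46). The first 4 had few reads, so their fitted change depends on the prior count. P2RY12 had 94 and 68 reads in the WT shControl and shMBD6 groups and 11 and 0 in the KO groups. In the same order, F5 had 112 and 240 compared with 13 and 1, and CLEC1B 29 and 37 compared with 5 and 0. GP6 had 93 and 38 compared with 4 and 4, and HPSE 316 and 287 compared with 45 and 44. Genes so low in KO can pass the filter on low counts through their WT groups. The changes of P2RY12, F5, CLEC1B, GP6 and HPSE are therefore given as a description. SLC24A3 was 2.55 ± 0.178 and 4.30 ± 0.595 CPM in WT and 0.890 ± 0.237 and 0.409 ± 0.182 CPM in KO (SD, n = 3).

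With shMBD6 in WT, 24 of 87 genes of the wider list were called higher (27.6%) and 29 lower (33.3%), compared with 17.7% and 24.7% over all genes. The balance turned with the scaling, to 34 higher and 23 lower under DESeq2 size factors and 34 and 24 under total gene counts. Among the 50 called without overlap (41.3% of all genes tested were), the largest increases were CD9 (a tetraspanin, 2.24), TIMP3 (a metalloproteinase inhibitor, 2.17) and MYL9 (a myosin light chain, 1.59). The largest decreases were P2RY1 (an ADP receptor, -1.24), F2RL3 (a thrombin receptor, -1.10) and FYB1 (-0.98).

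Between the labels in KO, 20 of 87 were called higher (23.0%) and 28 lower (32.2%), compared with 15.7% and 20.6%. Under total gene counts, 26 were higher and 25 lower. Among the 45 called without overlap (34% of all genes tested were), the largest increases were F2RL3 (0.94), P2RY1 (0.87) and GFI1B (a transcription factor of megakaryocytes and red cells, 0.85). TIMP3 had -1.72 (SE 0.23), from 5.03 ± 0.534 to 1.53 ± 0.550 CPM, without a p-value since it was named for this change. P2RY12 was at least 3.29-fold lower, with 0 reads compared with 11 and a floor of 3 counts over the group, and F5 had 1 read compared with 13, a ratio of 11.7 (95% exact interval 1.75 to 496, counting error only). The P2RY12 call was lost without KO shControl replicate 2 or KO shMBD6 replicate 3. The F5 call was lost without WT shMBD6 replicate 1, KO shControl replicate 1 or 3, or KO shMBD6 replicate 2 or 3.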

How the data were processed

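Chromatin-associated RNA was read from 12 K562 libraries. The authors fractionated cells, depleted ribosomal RNA and prepared stranded total-RNA libraries, and deposited raw read counts per gene, with 1 table per library. The submitters' processing notes name Trimmomatic 0.39, HISAT2 2.2.1, HTSeq 0.12.4 and hg38. The strand setting of the counting is left unstated by the sources used here, and ERCC spike-in rows were absent, so values are relative to the other genes of a library. Lines naming no gene (outside genes 13.1% to 16.0%, ambiguous 4.63% to 5.24%, multiple alignments 10.1% to 11.2% of records) were left out. Positions came from a GENCODE annotation of GRCh38 of another release, which matched 58207 of 58676 identifiers.

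Counts were tested with edgeR 4.0.16 (R 4.3.3, limma 3.58.1), by the quasi-likelihood test with TMM scaling, robust estimates and filterByExpr (minimum count 10), in 1 model of 4 groups. P-values were two-sided and adjusted by Benjamini-Hochberg over 26022 genes, and genes were called at 0.05. SE came from the F statistic. CPM used TMM-scaled totals. The script was tested on simulated data. Replicate pairs differed by more than sampling noise (chi-square 5.26 to 14.1 per degree of freedom). Alternatives used DESeq2 1.42.0, other scalings and filters, a 2-fold minimum and left-out libraries.

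The members and gene lists were chosen with earlier results of these data known. Genes of the wider list were named as the 6 largest changes in each direction (3 for shMBD6) among called genes whose libraries did not overlap. The mouse libraries of the series were not used here.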

Additional observations from a re-analysis of the deposited data

Results flagged for a closer look

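Effects of shMBD6 that differed between the genotypes are listed here as the interaction of genotype and shRNA label. Values are on the log2 scale, TET2 KO minus TET2 WT. The doubt about the labels of the TET2 KO libraries stays, and MBD6 reads on chromatin cannot settle it. TUBB1 had 5.58 and VWF -3.80. For these 2 members the libraries of the 2 labels did not overlap in either genotype, and the direction differed between genotypes. The VWF change in TET2 WT (1.13, SE 0.53) was not called, and VWF had 8 reads in TET2 KO labelled shMBD6. No p-value is given. The set was chosen on this difference in TUBB1, which was not tested independently of that choice, and VWF passed the filter on low counts through its TET2 WT groups. MBD6 itself had 0.75 (SE 0.11, edgeR adjusted p = 4.51e-07) and TET2 -0.45 (SE 0.06, edgeR adjusted p = 5.01e-08).

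Of the wider list, the interaction was -2.55 for CD9, -3.89 for TIMP3 and -1.38 for MYL9. P2RY1 had 2.11, F2RL3 2.05, GFI1B 1.60 and FYB1 0.41. P2RY12 had -4.86 and F5 -4.65, on very few reads, and both passed the filter on low counts through TET2 WT groups. Each of these genes was named for its change in a shMBD6 comparison that enters the interaction, so no p-value is given.

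Of the beta tubulins, TUBB had 1.58, TUBB2A -1.05, TUBB2B 3.30, TUBB4B 0.49 and TUBB6 0.29, with edgeR adjusted p-values of 1.66e-05, 0.00977, 0.0170, 0.000525 and 0.00138.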

How the results depend on the processing

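No called result changed sign under any alternative run. ITGA2B with shMBD6 in TET2 WT (0.01) ran from -0.06 to 0.06 and PLEK in TET2 KO against WT within libraries labelled shMBD6 (-0.30) reached 0.03 without TET2 KO shMBD6 replicate 1, and neither was called. A 2-fold minimum left 5921 called genes in TET2 KO against WT on average, 4605 in shControl, 7002 in libraries labelled shMBD6, 2842 with shMBD6 in TET2 WT, 2354 between the labels in TET2 KO and 6307 in the interaction. It left 2 called members on average, 1 in libraries labelled shMBD6, and 3 higher and 17 lower genes of the wider list. Scaling by total gene counts left 2 called members between the labels in TET2 KO and 14 higher genes of the wider list, and moved the median of all genes on average from 0.00 to -0.16 (-0.07 under DESeq2 size factors, -0.32 without a filter). Leaving out 1 library at a time gave 1 to 3 called members with shMBD6 in TET2 WT. The mean ratio to background was 9.41 for TUBB1, 24.8 for ITGA2B, 0.0555 for VWF and 0.460 for PLEK. With the median of olfactory receptor genes detected in each library it was 28.3, 73.9, 0.169 and 1.38, and without those on chromosome 11, chosen after seeing the data, 14.6, 38.7 and 0.738 for TUBB1, ITGA2B and PLEK. Per kb of exon, also chosen after seeing the data, it was 46.7, 0.587 and 2.79 for ITGA2B, VWF and PLEK. The median was restricted after seeing the data, because over all such genes with a count in any library it was 0 in 9 libraries. MBD6 passed the threshold between the labels in TET2 KO under 6 alternatives that kept all libraries and in a fit of those 2 groups alone. The 5 members that were not tested had too few reads to pass the filter on low counts.

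Replicate numbers did not pair the samples (18 pairs, correlations of deviations from -0.017 to 0.020). The fit with a replicate block called 13703 genes on average compared with 13711, and changed 1 call among the named results, that of MBD6 between the labels in TET2 KO (0.19).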
